A study of Mus musculus with 8 samples.

Results

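Genes of adipocytes and of fat storage were measured in 8 grafted MT-ret melanomas, 4 from mice given an antibody against Ang2 (anti-Ang2) and 4 from mice given an isotype control antibody (IgG). The set holds 31 genes named for what fat cells do. A member was taken where the array annotation gave its probe set a single gene symbol, which 30 of the 31 met, among 22840 genes in all. The probe set of Lipe, hormone-sensitive lipase, also carried a second identifier and was not analysed here. MT-ret mice carry a Ret oncogene under a metallothionein promoter, and tumour pieces from such mice had been grafted onto the flank of C57BL/6N hosts. Both groups thus carry the same oncogene in the tumour and normal host tissue around it, and differ in the antibody, which was started on day 7 after grafting and stopped when the tumour was removed. The labels give neither age nor sex, and each tumour has its own number. They do not say whether 2 tumours could come from 1 donor tumour, so p-values measure the spread between these 8 tumours.

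Adipocytes store fatty acids as triglyceride in a single large lipid droplet. Lipoprotein lipase and the transporter CD36 bring fatty acids in, acyltransferases build triglyceride from them, perilipins and CIDE proteins coat and enlarge the droplet, and lipases release the fat again. The nuclear receptor PPARG, with CEBPA, switches this programme on, and mature fat cells also secrete hormones such as adiponectin and leptin. Fat lies under the skin of the mouse flank, where these tumours grew. Several of the storage genes are also used outside fat: macrophages, capillary endothelium, muscle and many tumour cells hold small droplets coated by PLIN2. For this reason 14 members taken as fat markers (fat-restricted below) were kept apart from 17 that other cells of a tumour also use (shared). Of the shared members 16 were measured. The fat-restricted class is not strict: macrophages also make Cfd, and muscle also holds Plin4.

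Values are log2 of the authors' normalized intensity, 1 array per tumour, and differences are anti-Ang2 minus IgG on that scale. The arrays had medians from 6.09 to 6.15 and correlated pairwise at r = 0.967 to 0.988 across genes. The number of arrays, 4 per group, limits the precision, and a difference carried a standard error (SE) of 0.108 for the median gene. All 10 melanocyte genes listed for a check of the tissue were brighter than 95% of the olfactory receptor genes. So were 58.5% of all genes and all 14 macrophage genes, so this bar does not single out melanocytes. IgG replicate 1 stood apart in skeletal muscle signal: all 16 of its measured muscle markers were highest in that tumour, and their mean there was 2.48 above the mean of all arrays, against -1.17 to 0.95 in the other 7. For the members, values without this tumour are given where leaving it out turned a sign or moved a difference by a marked amount. For other genes and for the lists they are given only in part.

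The fat-restricted genes gave little signal in most tumours. As a gauge of a dim probe set, the means of 1095 olfactory receptor genes, which a tumour is not known to use, were taken, and their 95th percentile was 5.88. Of the 14 fat-restricted members 8 lay above it, or 57.1%, close to the 58.5% of all genes, while all 16 shared members did. Below the median gene, which stood at 6.10, were 12 fat-restricted members and 1 shared member. Probe sets differ in background, so this describes brightness and does not rank transcripts. In bulk tissue fewer fat cells and less RNA per fat cell cannot be told apart.

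The 2 classes also differed in a feature that the array does not measure, the CpG content of their promoters. Windows of 300 bases (250 before the start of the gene and 50 after it, RefSeq, GRCm38.p6) were found for 12 fat-restricted and 9 shared measured members, and the most upstream one of each gene was used. The fat-restricted windows held a median of 5 CpG dinucleotides (0 to 39), the shared ones 23 (3 to 44), and the windows of all 27025 listed genes a median of 7. At least 10 CpG were found in 3 of 12 fat-restricted windows (25.0%), in 7 of 9 shared ones (77.8%) and in 44.0% of all. Those 3 were Lep (19 CpG, mean level 5.50), Ucp1 (15, 5.66) and Acvr1c (39, 5.85), all under the olfactory gauge. Cfd, the brightest of the class at 6.48, had 2, so in these genes more CpG did not go with a brighter probe set. No window was found for the bright shared genes Scd1, Gpd1 and Fabp5. Windows of 3 genes are printed, 5′ to 3′ with each CpG in capitals, because they set 2 dim fat genes beside the bright droplet coat gene Plin2. That of Adipoq lies at chr16:23146286-23146585 (plus strand) and holds 0 CpG, that of Plin1 at chr7:79732727-79733026 (minus strand) holds 2, and that of Plin2 at chr4:86670010-86670309 (minus strand) holds 10.
Adipoq: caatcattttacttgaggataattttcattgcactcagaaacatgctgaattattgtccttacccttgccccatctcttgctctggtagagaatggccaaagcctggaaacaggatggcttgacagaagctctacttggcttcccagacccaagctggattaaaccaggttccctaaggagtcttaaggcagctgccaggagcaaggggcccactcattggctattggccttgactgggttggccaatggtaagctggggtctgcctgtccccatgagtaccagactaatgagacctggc
Plin1: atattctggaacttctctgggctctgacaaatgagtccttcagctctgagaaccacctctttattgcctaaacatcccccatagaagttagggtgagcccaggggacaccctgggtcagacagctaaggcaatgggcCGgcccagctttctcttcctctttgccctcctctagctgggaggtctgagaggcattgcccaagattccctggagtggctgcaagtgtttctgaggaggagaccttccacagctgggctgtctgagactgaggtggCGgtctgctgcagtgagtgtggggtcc
Plin2: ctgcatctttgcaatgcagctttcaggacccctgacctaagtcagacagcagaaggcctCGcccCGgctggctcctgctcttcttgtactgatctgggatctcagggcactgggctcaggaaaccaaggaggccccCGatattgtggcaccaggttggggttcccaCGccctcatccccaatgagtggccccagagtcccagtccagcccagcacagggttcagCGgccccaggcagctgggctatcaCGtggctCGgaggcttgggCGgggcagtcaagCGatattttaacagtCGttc
The letters ACGTG, shared by the E-box CACGTG and by hypoxia response elements, were sought on both strands. They are in the Plin2 window, where they lie within CACGTG, in 2 of the 9 shared windows, in 0 of the 12 fat-restricted ones and in 19.6% of all. A match is a description of the letters in these windows and no evidence of binding.

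The secreted products of fat cells came first among the dim genes. Adipoq, which encodes adiponectin, read 5.66, 5.65, 5.37 and 5.58 in the anti-Ang2 tumours and 6.02, 5.98, 5.65 and 5.50 in the IgG tumours. Only IgG replicates 1 and 2 passed the olfactory gauge, and the groups overlapped. Its difference was -0.22 (SE 0.13, 95% interval -0.51 to 0.06). Lep, the satiety hormone leptin, read 5.28, 5.50, 5.57 and 5.49 in anti-Ang2 and 5.70, 5.56, 5.55 and 5.36 in IgG tumours, all under the gauge. Its difference was -0.08 (SE 0.10). Cfd, which encodes adipsin, the complement protease factor D made by fat cells and also by macrophages, was the brightest of the class. It read 6.34, 6.16, 6.49 and 6.26 in anti-Ang2 and 7.74, 6.32, 6.46 and 6.06 in IgG tumours. A single tumour, IgG replicate 1, was high, and the other 7 lay within 6.06 to 6.49. The difference of -0.33 (SE 0.29) became 0.03 without that tumour. Retn, resistin, was also highest in IgG replicate 1, at 5.77, 6.01, 6.01 and 6.05 in anti-Ang2 and 6.50, 6.06, 5.80 and 5.76 in IgG tumours. Its difference was -0.07 (SE 0.15), and it turned to 0.09 without IgG replicate 1.

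Among the droplet proteins of the fat-restricted class, no group difference was larger than the spread between tumours. Plin1, the perilipin that guards the large droplet against lipases, averaged 6.04 ± 0.18 in anti-Ang2 tumours, against 5.98 ± 0.12 under IgG (mean ± SD, n = 4 per group, here and below). Plin4, a perilipin of young droplets also found in muscle, read 6.21, 6.26, 5.90 and 5.76 in anti-Ang2 and 6.43, 5.77, 6.07 and 5.74 in IgG tumours. Cidec, which fuses droplets, averaged 5.90 ± 0.14 in anti-Ang2 and 5.90 ± 0.20 in IgG tumours. For Plin4 and Cidec the highest tumour was again IgG replicate 1. The thermogenic genes were flat and dim: Ucp1, the brown fat uncoupling protein, spanned 5.59 to 5.74 in anti-Ang2 and 5.59 to 5.75 in IgG tumours. Cidea, a CIDE protein of brown fat, averaged 5.72 ± 0.12 in anti-Ang2 and 5.69 ± 0.12 in IgG tumours.

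The other 5 fat-restricted members had differences between -0.10 and 0.09. They were Aqp7, the glycerol channel of fat cells (-0.02), Adrb3, the adrenergic receptor that starts lipolysis (-0.01), Acvr1c, the receptor ALK7 (-0.10), Thrsp, a lipogenic regulator (-0.03), and Pck1, which supplies glycerol phosphate in fat (0.09). Over the 14 fat-restricted members the median difference was -0.01, beside 0.01 over all genes, with 5 higher and 9 lower in anti-Ang2 tumours. A positive difference was found for 53.5% of all genes. Without IgG replicate 1 the split of the 14 turned to 9 higher and 5 lower, with a median of 0.03.

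**Figure D1:**
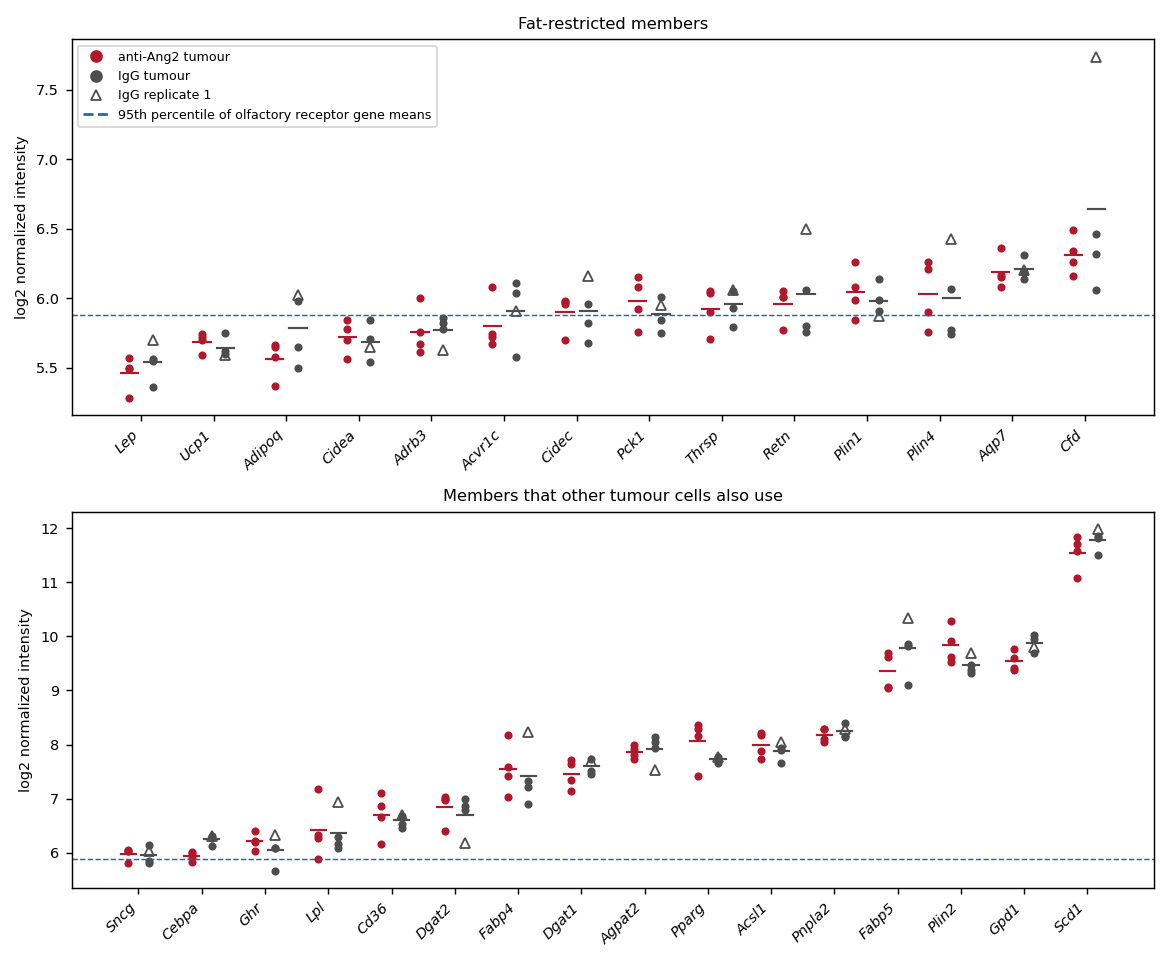
Log2 normalized intensity of the 30 measured members in each tumour, fat-restricted members above and shared members below, ordered by mean; points are tumours, short lines group means, and the dashed line is the gauge of 5.88. Of the fat-restricted genes Cfd stands out in IgG replicate 1 (open triangle, 7.74), while Fabp5, Plin2, Gpd1 and Scd1 are bright in all 8 tumours.

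IgG replicate 1 carried the highest value for 7 of the 14 fat-restricted members, namely Adipoq, Lep, Retn, Cfd, Plin4, Cidec and Thrsp, and for 3 of 16 shared ones (18.8%), Fabp4, Fabp5 and Scd1. Of all genes 14.8% were highest in that tumour. This count was chosen after the values were seen. Fat markers moved little beside muscle: the mean of the 14 fat-restricted genes was 0.20 above the mean of all arrays in IgG replicate 1, and from -0.09 to 0.03 in the other 7. Acta1, skeletal muscle actin, read 7.26, 9.57, 6.27 and 6.58 in anti-Ang2 and 11.85, 10.70, 7.44 and 9.34 in IgG tumours. Its highest tumours were IgG replicates 1 and 2, the same that were highest for Adipoq. Macrophage markers were highest in IgG replicate 1 for 8 of 14 genes, with a mean of 0.34 above that of all arrays there and from -0.19 to 0.16 elsewhere. The part of muscle, fat tissue or macrophages in these values was not tested.

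Without IgG replicate 1 several member differences moved while none passed adjustment. That of Adipoq was -0.14 and that of Lep -0.025, both nearer 0 than with all tumours. Dgat2 turned to -0.03, against 0.14 with all tumours. Thrsp turned from -0.03 to 0.003, and Cidec, level with all tumours, stood at 0.085. Plin4 stood at 0.17, Lpl at 0.23, Ghr at 0.26 and Agpat2 at -0.18, each farther from 0. At a limma unadjusted p under 0.05 the count of members was 3 of 30 with and without this tumour. Of all genes 7.09% passed that bar with it and 7.41% without it. Leaving it out brought the muscle list to 3 of 16 genes at an unadjusted p under 0.05, against 12 with it, and its median difference to -0.78, against -1.35. The muscle genes were lower in anti-Ang2 tumours in 16 of 16 either way.

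**Figure D2:**
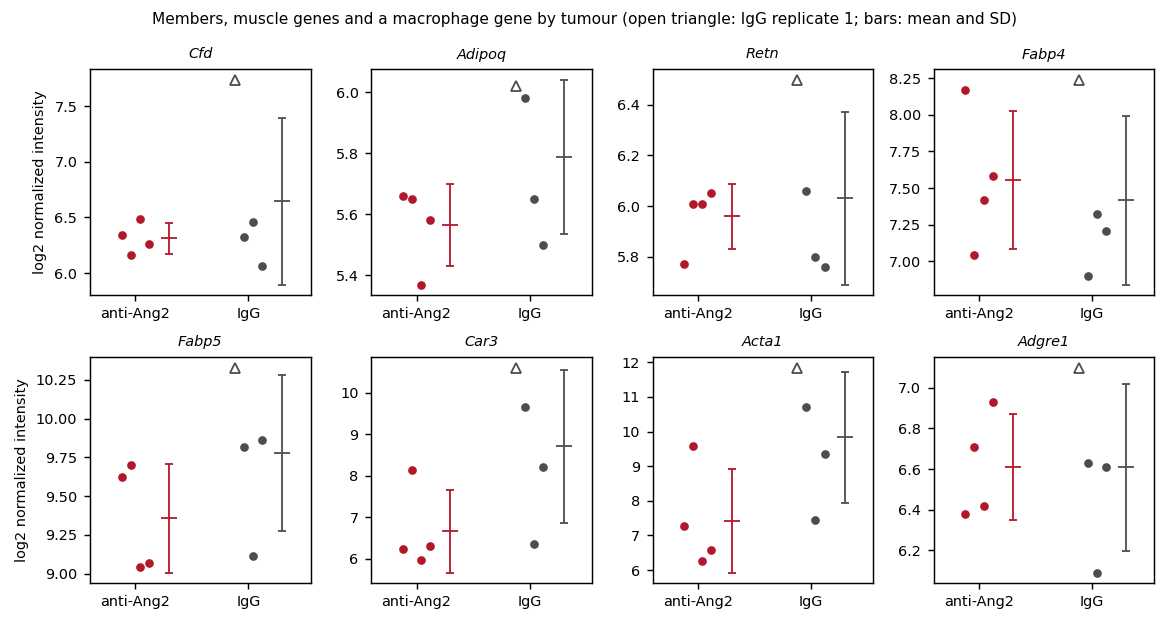
Log2 normalized intensity by tumour for 5 members (Cfd, Adipoq, Retn, Fabp4, Fabp5), for Car3, a marker of fat and of slow muscle, for the muscle gene Acta1 and for the macrophage gene Adgre1; points are tumours and bars the mean and SD of each group. IgG replicate 1 (open triangle) is the highest of 8 in each panel, at 7.74 for Cfd and 11.85 for Acta1.

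Genes of fatty acid uptake, which endothelium, muscle and macrophages share with fat, had means above the olfactory gauge and varied widely between tumours of a group. Lpl fell to 5.89 in anti-Ang2 replicate 3, level with the gauge of 5.88. Fabp4, the fatty acid carrier of fat cells, capillaries and macrophages, read 8.17, 7.04, 7.42 and 7.58 in anti-Ang2 and 8.24, 6.90, 7.32 and 7.21 in IgG tumours. Replicate 1 was the highest in both groups, and the difference of 0.14 (SE 0.28) became 0.41 when IgG replicate 1 was left out and -0.07 when anti-Ang2 replicate 1 was. Fabp5, the epidermal carrier also used by macrophages and tumour cells, read 9.62, 9.70, 9.04 and 9.07 in anti-Ang2 and 10.33, 9.82, 9.11 and 9.86 in IgG tumours. In IgG, 3 tumours lay above all anti-Ang2 ones and IgG replicate 3 did not. Its difference was -0.42 (SE 0.24, 95% interval -0.95 to 0.10), the most negative of the members, and -0.24 without IgG replicate 1. The RefSeq table lists a Fabp5-like pseudogene, whose share of this signal was not tested.

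Lpl, lipoprotein lipase, read 6.27, 6.33, 5.89 and 7.19 in anti-Ang2 and 6.94, 6.29, 6.10 and 6.17 in IgG tumours. Cd36, the fatty acid transporter, read 6.66, 6.86, 6.17 and 7.11 in anti-Ang2 and 6.71, 6.54, 6.69 and 6.46 in IgG tumours. Both were highest in anti-Ang2 replicate 4 and lowest in anti-Ang2 replicate 3, so the spread within the anti-Ang2 group covered the whole IgG range. The differences were 0.05 (SE 0.26) for Lpl and 0.10 (SE 0.17) for Cd36. Acsl1, which activates fatty acids by joining them to coenzyme A, differed by 0.12 (SE 0.13).

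Triglyceride synthesis gave the second most separated member, Gpd1, the cytosolic glycerol phosphate dehydrogenase that makes the backbone of triglyceride and that muscle also holds. It read 9.38, 9.60, 9.42 and 9.76 in anti-Ang2 and 9.80, 9.70, 9.95 and 10.02 in IgG tumours. Only anti-Ang2 replicate 4 reached into the IgG range. The difference was -0.33 (SE 0.11, 95% interval -0.57 to -0.08, fold 0.796), with a limma unadjusted p of 0.0134 and an adjusted p of 0.654. Its two-sided exact permutation p was 0.0571, where 0.0286 is the smallest possible. The difference ranged from -0.40 to -0.27 with each tumour left out, and the highest tumour was IgG replicate 4.

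Scd1, the desaturase that makes oleic acid, was bright everywhere, at 11.08, 11.84, 11.57 and 11.70 in anti-Ang2 and 11.98, 11.81, 11.51 and 11.85 in IgG tumours. Its difference of -0.24 (SE 0.16) was -0.08 without anti-Ang2 replicate 1, the lowest tumour. The acyltransferases differed by less than their spread. Dgat1, which adds the last fatty acid, averaged 7.46 ± 0.27 in anti-Ang2 and 7.60 ± 0.13 in IgG tumours. Dgat2, which does the same step at the droplet, averaged 6.85 ± 0.30 in anti-Ang2 and 6.71 ± 0.36 in IgG tumours, with anti-Ang2 replicate 4 (6.41) and IgG replicate 1 (6.19) low. Agpat2, which adds the second fatty acid, averaged 7.86 ± 0.11 in anti-Ang2 and 7.91 ± 0.27 in IgG tumours. Of the measured lipolysis genes, Pnpla2, the lipase ATGL that starts triglyceride breakdown, averaged 8.18 ± 0.13 in anti-Ang2 and 8.25 ± 0.12 in IgG tumours.

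Plin2, the perilipin of small droplets in most cells, stood higher in anti-Ang2 tumours, at 10.28, 9.92, 9.61 and 9.53 against 9.70, 9.37, 9.47 and 9.32 in IgG tumours. The top values were those of anti-Ang2 replicates 1 and 2, and IgG replicate 1 overlapped the other 2. The difference was 0.37 (SE 0.16, 95% interval 0.02 to 0.72, fold 1.29), with a limma unadjusted p of 0.0396 and an adjusted p of 0.699. It ranged from 0.22 without anti-Ang2 replicate 1 to 0.47 without anti-Ang2 replicate 4. The exact permutation p was 0.114.

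The pair of master regulators had differences of opposite sign, neither past adjustment. Cebpa, a C/EBP factor of fat and also of myeloid cells, read 6.00, 5.91, 5.84 and 6.01 in anti-Ang2 and 6.32, 6.27, 6.12 and 6.32 in IgG tumours. It was the 1 member whose groups did not overlap, a pattern found for 1.46% of all genes in this direction. In the other direction 0 members were clear of overlap, against 2.28% of all genes, and 0 differed by 0.5 or more either way, against 1.28%. The difference was -0.32 (SE 0.09, 95% interval -0.51 to -0.13, fold 0.802), with a limma unadjusted p of 0.00345, an adjusted p of 0.546 and an exact permutation p of 0.0286, the smallest possible. With each tumour left out the difference stayed between -0.36 and -0.28. Its probe set was dim, near the median gene, so that the separation spans 0.48 from the lowest to the highest tumour.

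Pparg, the nuclear receptor of fat cells, which endothelium and macrophages also make, read 8.28, 8.37, 7.43 and 8.16 in anti-Ang2 and 7.77, 7.78, 7.72 and 7.67 in IgG tumours. In anti-Ang2, 3 tumours lay above all IgG tumours and anti-Ang2 replicate 3 lay below them. The difference was 0.33 (SE 0.18, limma adjusted p = 0.745), and it was 0.54 without anti-Ang2 replicate 3 (adjusted p = 0.438). Of the other shared members, Ghr, the growth hormone receptor, differed by 0.16 (SE 0.14) and Sncg, a synuclein of fat cells and peripheral nerves, by 0.02 (SE 0.10).

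Over the whole table limma called 0 genes (0.0%) at an adjusted p under 0.05, and so 0 of the 30 members, whose smallest adjusted p was that of Cebpa. At an unadjusted p under 0.05 limma gave 3 of 30 members (10%), Plin2 higher and Gpd1 and Cebpa lower, against 1619 of 22840 genes (7.09%), or 4.09% higher and 3.0% lower. That share lies near the background. All 3 are shared members, and none of the 14 fat-restricted ones was among them. The authors' deposited table gives unadjusted p-values of 0.00303 for Cebpa and 0.0284 for Gpd1. For Plin2 the value in the authors' deposited table was 0.146. The shared members had a median difference of 0.03, with 9 higher and 7 lower.

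**Figure D3:**
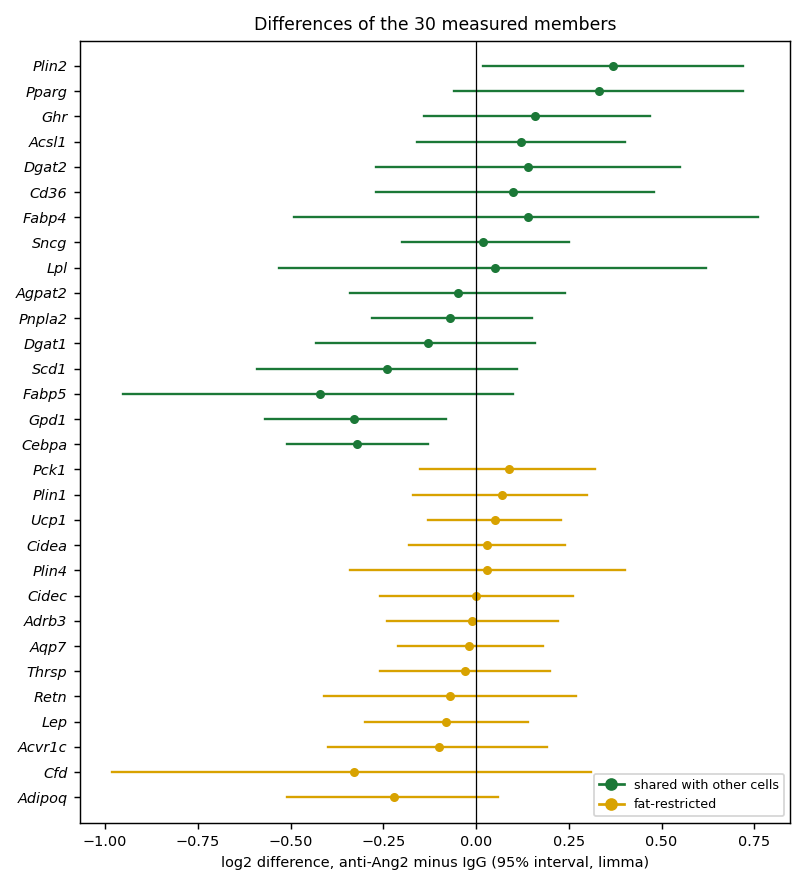
Log2 difference (anti-Ang2 minus IgG) of each measured member with its 95% interval from limma, shared members above and fat-restricted members below, ordered by moderated t. The intervals of Plin2, Gpd1 and Cebpa leave out 0, and no member passed adjustment over all genes.

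The wider fat storage pathway was read from 50 further genes, of which 48 were measured. None passed at an adjusted p under 0.05; the median difference was 0.00, with 24 higher and 24 lower, and 6 had a limma unadjusted p under 0.05 (12.5%, beside 7.09% of all genes), 4 higher and 2 lower. The widest difference was that of Angptl4, a secreted inhibitor of lipoprotein lipase that PPARs and hypoxia induce. It read 9.48, 7.65, 7.71 and 7.12 in anti-Ang2 and 6.41, 6.39, 7.24 and 6.68 in IgG tumours. Anti-Ang2 replicate 1 was far above the others, and anti-Ang2 replicate 4 lay within the IgG range. The difference was 1.31 (SE 0.42, fold 2.48, limma adjusted p = 0.616), and 0.81 without anti-Ang2 replicate 1. Hilpda, a hypoxia-induced droplet protein that restrains ATGL, differed by 0.29 (SE 0.19), and by 0.14 without IgG replicate 1. In Plin2, Angptl4 and Hilpda alike the highest tumour was anti-Ang2 replicate 1, which also had the highest mean of the 17 measured hypoxia genes, 0.46 above the mean of all arrays, against -0.59 in IgG replicate 1. Hilpda was lowest in IgG replicate 1, at 7.71. Plin2 was not: it read 9.70 there, the highest of the IgG tumours. That is above its 9.61 in anti-Ang2 replicate 3, where the hypoxia mean was 0.37. Over the anti-Ang2 tumours the hypoxia means ran from -0.02 to 0.46 and over the IgG tumours from -0.59 to -0.09, with 11 of 17 genes at a limma unadjusted p under 0.05, all higher, and 7 of 17 without either replicate 1 in turn. The part of hypoxia in the Plin2 values was not tested.

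Cavin1, a caveolar coat protein of fat cells and endothelium, was higher without overlap, at 8.54, 8.22, 8.48 and 8.31 in anti-Ang2 and 7.87, 8.14, 8.14 and 7.99 in IgG tumours (difference 0.35, SE 0.10, limma adjusted p = 0.593). Npr1, the natriuretic peptide receptor that drives lipolysis, was lower without overlap, at 6.07, 6.32, 6.35 and 6.26 in anti-Ang2 and 6.62, 6.59, 6.77 and 6.63 in IgG tumours (-0.40, SE 0.09, adjusted p = 0.460). Groups that do not overlap were found for 3.74% of all genes. Fitm1, a fat storage protein found mainly in muscle, was also lower without overlap, though by a narrow margin. It read 5.83, 5.98, 5.55 and 5.63 in anti-Ang2 and 7.66, 6.56, 6.00 and 6.13 in IgG tumours. Of the anti-Ang2 tumours only replicate 2 passed the olfactory gauge. The difference was -0.84 (SE 0.30), and -0.48 without IgG replicate 1, its highest tumour and the one with the most muscle signal. With all tumours the cofactors of the lipase ATGL differed little: Abhd5, its activator, by 0.04 and G0s2, its inhibitor, by 0.14. Without IgG replicate 1 Abhd5 stood at -0.16 (SE 0.11) and G0s2 at 0.23 (SE 0.1). The other genes fixed for naming had unadjusted limma p-values above 0.05. Mgll, monoglyceride lipase, stood at 0.12 (SE 0.45), Plin3 at -0.09 (SE 0.12), Plin5 at 0.04, Gpihbp1, which holds lipoprotein lipase on capillaries, at -0.02, Slc2a4, the insulin-responsive glucose transporter, at 0.04, Cebpb at -0.19 (SE 0.16), Srebf1, a lipogenic factor, at 0.05 and the leptin receptor gene Lepr at 0.00.

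**Figure D4:**
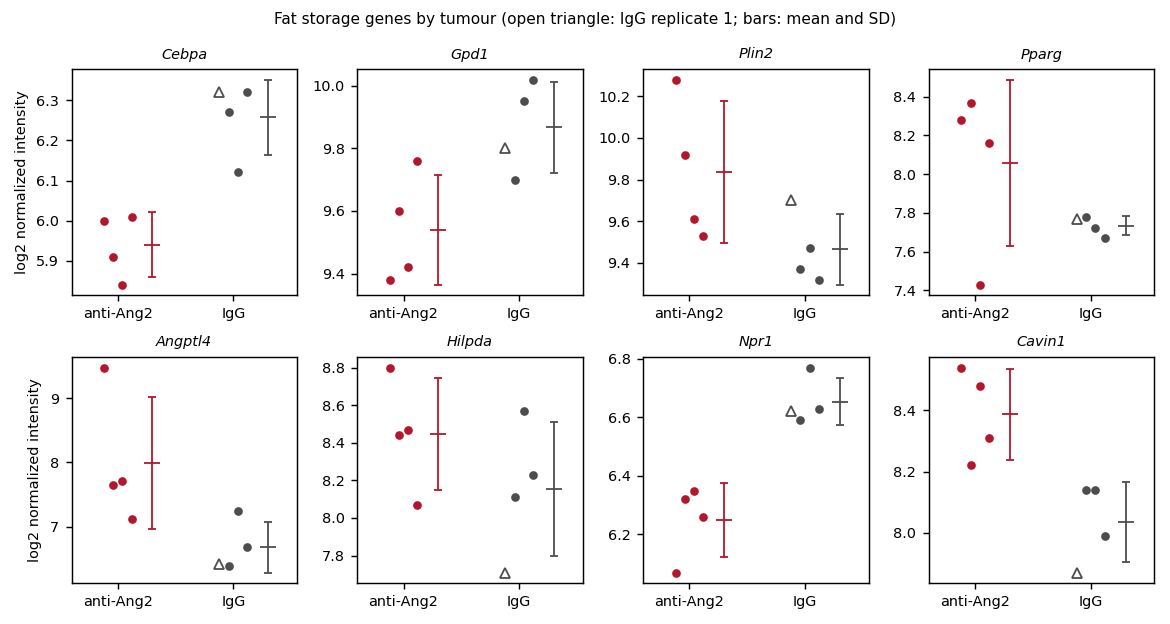
Log2 normalized intensity by tumour for the members Cebpa, Gpd1, Plin2 and Pparg and for the pathway genes Angptl4, Hilpda, Npr1 and Cavin1; points are tumours, the open triangle is IgG replicate 1 and bars give the mean and SD of each group. Cebpa and Npr1 are lower and Cavin1 higher in anti-Ang2 tumours without overlap, and Angptl4 reaches 9.48 in anti-Ang2 replicate 1.

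A second list of 18 adipocyte markers, of which Lep and Adrb3 are members, was also dim: 6 of 18 lay above the olfactory gauge and 13 below the median gene. Its median difference was -0.05, with 5 higher and 13 lower, where 53.5% of all genes were higher. At a limma unadjusted p under 0.05 were 2 genes (11.1%, beside 7.09% of all genes). Without IgG replicate 1 the split was 7 higher and 11 lower, with 1 gene at that p. Car3, a carbonic anhydrase of fat and of slow muscle, read 6.24, 8.13, 5.97 and 6.30 in anti-Ang2 and 10.61, 9.65, 6.35 and 8.22 in IgG tumours, a difference of -2.05 (SE 0.78, limma adjusted p = 0.686), and -1.41 without IgG replicate 1. Its high tumours were those high in Acta1. Nnat, neuronatin, differed by -0.37 (SE 0.16), or -0.21 without that tumour. Cyp4b1, a cytochrome that oxidises fatty acids, differed by 0.69 (SE 0.34), or 0.34 without it.

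The endothelial list, whose cells share Fabp4, Cd36 and Pparg with fat, ranged in its mean from -0.14 to 0.15 over the anti-Ang2 and from -0.16 to -0.01 over the IgG tumours. Of its 12 genes 7 were higher and 5 lower, from -0.15 to 0.43 with a median of 0.17. Its gene Pecam1 was higher without overlap (0.38, SE 0.09, limma adjusted p = 0.473), with Plvap at 0.43 and Cdh5 at 0.30. The 14 macrophage genes had a median difference of 0.01, with 9 higher and 5 lower. Without IgG replicate 1 their median was 0.14, with 12 higher and 2 lower. The macrophage genes named for the largest moderated t were Mrc1 at 0.91, Cd68 at 0.42 and Mertk at -0.60. Skin was the other neighbour of the graft: 6 of 12 keratinocyte genes lay above the gauge, and their mean was highest in IgG replicate 2, at 0.39 above that of all arrays, with the other 7 between -0.12 and 0.03. Of these 12 genes 4 were higher and 8 lower, with a median difference of -0.06. Those named were Sfn (0.53), Krt1 (-0.39) and Krt14 (-0.16). Without IgG replicate 2 Sfn stood at 0.68, Krt1 at -0.06 and Krt14 at -0.07. The part of these cells in the members' values was not tested.

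Variation between tumours was compared with that of Adipoq. Its probe set lay under the olfactory gauge in 6 of 8 tumours, so these correlations cannot show whether members follow the amount of fat. Over the 8 tumours the 29 other members had a median Pearson's r of 0.167 with Adipoq, 18 of them positive. The highest was Fabp5 (r = 0.699, exact permutation p = 0.0566, Benjamini-Hochberg adjusted p = 0.651 over 29 relations; Spearman's rho = 0.571, exact permutation p = 0.151, adjusted p = 0.870). It was 0.251 without IgG replicates 1 and 2, the tumours farthest from the median of Adipoq, so it rests on those. Retn (0.627), Thrsp (0.625), Cebpa (0.621) and Cfd (0.597) followed. By Spearman's rho the highest was Thrsp (0.762, exact permutation p = 0.0368, Benjamini-Hochberg adjusted p = 0.870). The Pearson's r of Thrsp was 0.422 without IgG replicates 1 and 2. None of the 29 had an adjusted p under 0.05 by either measure. For Cfd r was -0.0409 without IgG replicate 1. Within the groups the relation of Cfd with Adipoq was -0.808 over the 4 anti-Ang2 and 0.683 over the 4 IgG tumours, too few for a test.

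Outside the members, genes were sought whose levels ran most like the mean of the fat-restricted class, and 9 of them are given. Muscle genes among them were Tnnt1, the slow troponin T (r = 0.967 over 8 arrays), and Trim54, a muscle ring finger protein (0.963). The others were Olfr460, Ptp4a3, Clu, Grik1, Tigd4, Ppp1r3a, a glycogen-targeting subunit of muscle phosphatase, and 2310061I04Rik, at 0.952 to 0.962. All 9 were highest in IgG replicate 1, and without that tumour their r ranged from 0.795 to 0.934. These were picked as the highest of all genes over 8 arrays and are a description with no test.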

How the data were processed

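Total RNA, 250 ng per tumour, had been labelled with biotin and hybridised to Affymetrix whole-transcript arrays, per the labels' protocols. Normalized intensity on a linear scale was deposited by the authors for each probe set, both as a workbook and as the value table of the series, which differ by at most 4.9e-10 of the value. How background was corrected and arrays normalized is not given in the sources used here. The workbook also holds the deposited ratio (fold) of group means, anti-Ang2 over IgG, and a deposited p-value equal to an unadjusted Welch test on linear intensities to within 1.4e-09, as checked from the values.

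Log2 was taken with no pseudocount. Of 24648 probe sets 5 had missing values, 22844 had 1 symbol, 1385 several, and the names of 418 were not used here. Symbols were updated through Entrez IDs with RefSeq (21842 found, 2270 changed), leaving 22840 genes. The annotation text of the probe sets of Ghr, Dgat1 and Agpat2 is cut short in the file, so further genes on these are possible. Groups were compared with limma 3.58.1 in R 4.3.3 (lmFit, eBayes, no covariate; prior degrees of freedom 4.86, residual 6) with Benjamini-Hochberg adjustment over all genes and a threshold of 0.05. Permutation tests are two-sided over 70 assignments, and correlations use all 40320 orders. In 10 simulated runs of 22840 genes with 200 changed, 39.6% of changes of 0.5 and 86.5% of changes of 1 were recovered, with 6.8 false calls per run. Normal noise was drawn independently for each gene from its own residual SD. The real tumours share variation between genes, as in the muscle markers, so these shares do not tell what the real comparison could detect.

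The members, their classes and the 12 other lists read here were chosen with earlier results of these data known. Named beside the members are 12 preset pathway genes with the 2 of smallest p in each direction, up to 3 genes of each other list by moderated t, and the 10 genes most like the fat-restricted mean; 2 genes that this rule names are not reported here. Tried in turn were each tumour left out, a replicate block, array weights, a trended and a robust eBayes, centring on medians, quantile normalization, dropping dim genes by either of 2 bars, keeping every probe set, an unadjusted threshold and the authors' p-values. Leaving out tumours for the genes and counts of the other lists was added after seeing the data. Other software was Python 3.11.15, pandas 2.3.3, scipy 1.17.1 and matplotlib 3.10.9.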

Additional observations from a re-analysis of the deposited data

Results flagged for a closer look

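In groups of 4 tumours, a value was singled out where its gap to the nearest other value exceeded, as a share of the group's range, Dixon's 95% critical value. Over 60 groups (30 members in 2 groups) this met 4 values, and chance gives about 1 in 20. All were the lowest of the anti-Ang2 group. Retn was 5.77 in anti-Ang2 replicate 1, with the next at 6.01. Cidec was 5.70 in anti-Ang2 replicate 2, with the next at 5.96. Dgat2 was 6.41 in anti-Ang2 replicate 4, with the next at 6.97. Sncg was 5.81 in anti-Ang2 replicate 2, with the next at 6.03. The high value of Cfd in IgG replicate 1 did not reach that bar.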

How the results depend on the processing

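No member passed an adjusted p under 0.05 under any alternative that was run. Leaving out each tumour gave 0 to 1 genes over the whole table, the 1 being without anti-Ang2 replicate 2, and 0 to 0 members. Other alternatives gave 0 genes, apart from the unadjusted p of 0.05, with 1619 genes and 3 members. The median difference of the fat-restricted members was -0.014, and -0.074 to 0.026 with a tumour left out. It moved to -0.175 when only genes above the median gene were kept, which leaves 2 of the 14. The shared median was 0.034, and -0.025 to 0.061 with a tumour left out. Signs of 2 members, Retn and Cidec, turned with array weights, and those of 1 to 6 members when a tumour was left out, all of them members with an interval that holds 0. The median r of members with Adipoq was 0.167, 0.0596 to 0.205 with a tumour left out, 0.256 on residuals after group means and -0.00383 without the 2 tumours farthest from the median of Adipoq.

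The labels do not say whether replicate numbers pair the tumours. Deviations of same-numbered tumours correlated at 0.061, -0.0539, 0.0688 and 0.0802, and 2 of 4 anti-Ang2 tumours correlated best with their own number. With so few tumours these values cannot decide whether there was a pairing. The replicate block gave 0 genes and 0 members past the threshold, with 4 of 30 members at a limma unadjusted p under 0.05, against 3 without it. The shares of all genes at that p were 7.18% with the block and 7.09% without it. The brightness of the fat-restricted probe sets, 6 of which lie under the olfactory gauge, limits what can be seen of them.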

Other observations

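Of 11 measured brown fat genes 6 lay above the olfactory gauge and 0 had a limma unadjusted p under 0.05 in either direction, with 6 higher and 5 lower. Their named genes were Cox7a1 (-0.33), Cox8b (-0.19) and Prdm16 (0.21), which drives the brown programme. Without anti-Ang2 replicate 1 Cox7a1 stood at -0.08 and Prdm16 at 0.08. Cox8b stood at -0.03 without IgG replicate 1, its highest tumour. Of 9 measured genes of fat progenitors and stroma 6 were higher and 3 lower, with Ly6a, the stem cell antigen Sca-1, at 0.38 (0.66 without IgG replicate 1), Pdgfra, a fibroblast receptor, at 0.21 and Icam1 at -0.16. Sebaceous glands, the other fat-making cells of skin, were read from 9 genes, of which 3 were higher and 6 lower, with a median difference of -0.03. Of the 9 genes 2 passed the gauge. One of these, Soat1, which esterifies cholesterol in many cells, was higher without overlap, at 10.28 to 10.45 in anti-Ang2 and 9.49 to 10.26 in IgG tumours (0.40, SE 0.15, limma adjusted p = 0.670), and by 0.25 without IgG replicate 1. Awat2 (0.11) and Mc5r (-0.12), known from sebaceous glands, were the other named genes.

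Further genes of the check lists were named by the same rule. Of the muscle list these were Eno3 (-1.27), Myh2 (-1.08) and Myh1 (-1.32), which stood at -0.82, -0.70 and -0.80 without IgG replicate 1. Of the hypoxia list they were Kdm3a (0.54), P4ha2 (0.58) and Ndrg1 (1.19). Of the 10 melanocyte genes 7 were higher and 3 lower, from -0.11 to 0.38, and 4 were higher and 6 lower without IgG replicate 1; those named by the rule were Tyrp1 (0.22), Trpm1 (0.19) and Gpr143 (0.25). Of the 10 Schwann cell genes 4 were higher and 6 lower, from -0.87 to 0.05, and Cnp (-0.87) and Pmp22 (-0.36) were among those named. The pathway genes Vldlr (0.40), a lipoprotein receptor, and Mogat2 (0.27), a monoacylglycerol acyltransferase, completed the 4 pathway genes higher at an unadjusted p under 0.05 and were named after their values were seen.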
